A study of Mus musculus with 12 samples.

Results

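Collagens are trimers of alpha chains, and each chain is the product of its own gene. All 43 genes whose symbol has the form of a collagen chain (Col, a type number, the letter a and a chain number) were taken from the table, out of 23260 genes. They fill 50 of its 30399 transcript rows, because 6 of them have more than 1 row. The row of highest mean stood for each gene, and no chain was dropped for a low level. By type there were 11 fibrillar chains, 9 FACIT chains (which sit on the surface of fibrils or microfibrils), 6 basement membrane chains and 6 beaded filament chains. There were also 4 transmembrane chains, 3 short chain network chains, 2 multiplexins (Col15a1 and Col18a1), the anchoring fibril chain Col7a1, and Col28a1, which fits none of these types.

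The tissue was the paraventricular nucleus (PVN) of the hypothalamus, punched from brains of adult male mice aged 18 to 20 weeks. In the miR group (6 animals, replicates 1 to 6), zygotes had been microinjected with 9 miRIDIAN microRNA mimics in 1X DPBS, namely miR-375, miR-698, miR-30c, miR-29c, miR-204, miR-30a, miR-193-5p, miR-32 and miR-532-3p. Their combined concentration was 1 ng/uL, with 0.11 ng/uL of each mimic. In the PBS group (6 animals, replicates 7 to 12), zygotes had received 1X DPBS alone. All zygotes were C57/Bl6:129S6/SvEvTac hybrids, and all were carried by surrogate CD1 dams, so neither group is an unmanipulated control. The mimics were given once, at the zygote stage, and RNA was measured in adult tissue. The labels call the libraries biological replicates and do not give the litter of each animal.

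In the brain most collagen is found around blood vessels and in the meninges, while the space between neurons is poor in fibrils. Endothelial and mural cells lay down the type IV network of the vascular basement membrane, and fibroblasts of the meninges and large vessels make types I and III. Type VI beaded filaments link basement membranes to the surrounding matrix. A few membrane-bound collagens are made by neurons themselves. The chains are hydroxylated, glycosylated and assembled in the endoplasmic reticulum before secretion. The miR-29 family is known in many tissues as a repressor of collagen mRNAs, which carry sites for its seed in their 3′ untranslated regions.

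One measured difference among the libraries came before all group results. The PBS replicates 8, 9, 10 and 12 stood apart in Meg3, an imprinted long noncoding RNA that is retained in the nucleus. Meg3 measured 49.9 to 68.1 RPKM (reads per kilobase of transcript, scaled to library size) in the miR libraries. Among the PBS libraries it measured 158, 316, 190 and 245 RPKM in replicates 8, 9, 10 and 12, against 50.6 RPKM in replicate 7 and 58.0 RPKM in replicate 11. The same 4 libraries also exceeded the other 8 in the noncoding RNAs Miat and Snhg11 and in Leng8 and Snrnp70, and for Leng8 they had 33.6 to 39.5 RPKM, against 8.13 to 10.5 RPKM in the other 8. The noncoding RNA Malat1 overlapped, at 9.83 to 57.0 RPKM in the 4 libraries and 7.11 to 11.2 RPKM in the other 8. The 4 libraries are called libraries of high Meg3 here only as a name. Each fitted difference of a chain is therefore given with all libraries and without those 4. They were set apart with earlier results of these data known, so a fit that leaves them out, or leaves out the other 2 PBS libraries, describes the libraries that stay in it. Depth was 22.8 to 45.2 M reads per library. The 6 PVN neuron markers (Avp, Oxt, Crh, Trh, Sim1 and Otp) were all detected, with a summed level of 1984 to 5160 RPKM in miR and 2190 to 5779 RPKM in PBS. In bulk punches, fewer cells that make a chain and less of its RNA per cell cannot be told apart.

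Collagen expression in this tissue was low and uneven. Across the 12 libraries 16 chains had a mean of at least 1 RPKM, 19 lay from 0.1 to below 1 RPKM, and 8 lay below 0.1 RPKM. The chain of highest mean was Col25a1, a transmembrane collagen of neurons whose shed ectodomain is found in amyloid plaques, at 18.1 RPKM. Next came Col9a2 at 9.49 RPKM, Col4a2 at 6.96 RPKM, Col8a2 at 4.60 RPKM and Col4a1 at 4.15 RPKM. Col25a1 exceeded every other chain in every library, while the ranges of neighbours in the rest of this order overlapped, so that their order was within the spread. Transmembrane chains held 29.2% of the summed collagen level, FACIT chains 23.2%, basement membrane chains 17.9% and fibrillar chains 10.6%.

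The summed level of all 43 chains was 51.7 to 59.8 RPKM in the miR libraries and 54.6 to 92.2 RPKM in the PBS libraries. Within PBS it was 82.1 to 92.2 RPKM in replicates 8, 9, 10 and 12. The other 2 PBS libraries lay within the miR range. Mean levels were lower in miR for 39 of the 43 chains. On the log2 scale used below, without a filter on level, 39 of 43 chains were lower in miR, beside 10232 of 20477 genes.

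**Figure D1:**
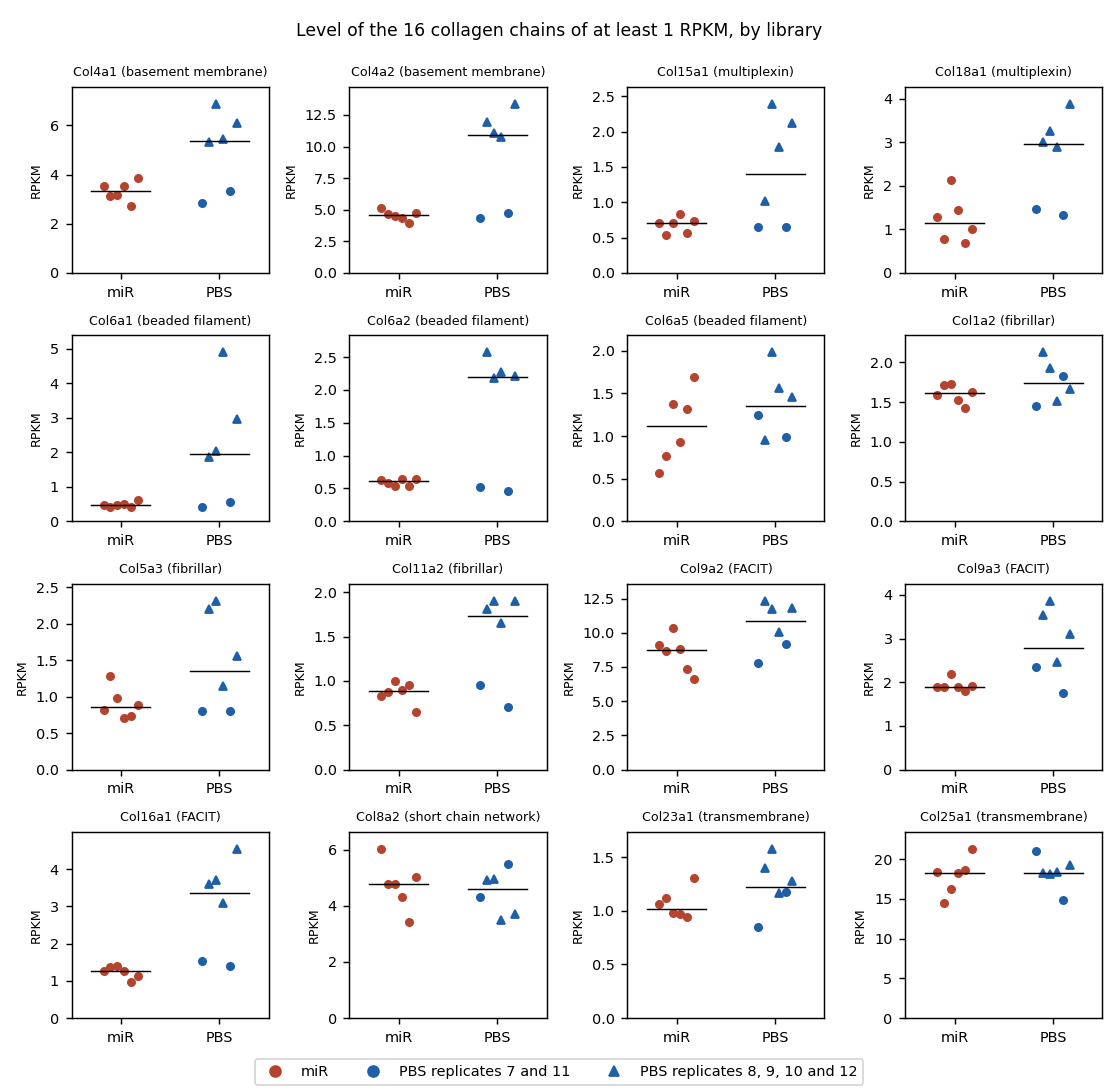
Level in RPKM (linear axes from 0) of each of the 16 chains with a mean of at least 1 RPKM in the 6 miR and 6 PBS libraries. Each point is a library, triangles are PBS replicates 8, 9, 10 and 12, and lines are group medians. For Col4a2 the triangles lie at 10.8 to 13.4 RPKM and all other points at 3.97 to 5.17 RPKM, while for Col25a1 and Col8a2 the triangles lie among the other points. For Col1a2 the triangles of replicates 8 and 9 lie above the circles, and those of replicates 10 and 12 lie among them.

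The comparison of miR with PBS asks which chains differ in adult PVN after the mimics. It was made with limma on log2(RPKM + 0.5) over the 13273 genes that averaged 1 RPKM or more, with Benjamini-Hochberg adjustment over all of them. On this scale the change of a gene of low level is understated, and each difference below is miR minus PBS. None of the 16 chains tested passed an adjusted p of 0.05, and neither did any other gene (0% of genes). At an unadjusted p under 0.05, 11 of the 16 chains were lower in miR, beside 11.1% of all genes tested. The other 5 were Col25a1, Col8a2, Col1a2, Col6a5 and Col23a1. In the other direction 0 of 16 chains were higher in miR, beside 9.12% of all genes. The median difference was -0.45 over the chains and 0.01 over all genes.

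The basement membrane chains Col4a1 and Col4a2, which together form the main type IV trimer of vessel walls, gave the clearest picture of how the libraries fell. Col4a2 (chr8:11312829-11449287 in mm9, plus strand) had a lowest, median and highest level of 3.97, 4.57 and 5.17 RPKM in miR, against 4.31, 10.9 and 13.4 RPKM in PBS. The PBS values were 11.9, 11.1, 10.8 and 13.4 RPKM in replicates 8, 9, 10 and 12, while replicates 7 and 11 had 4.31 and 4.72 RPKM. So the 4 PBS libraries of high Meg3 lay far above every miR library, and the other 2 lay inside the miR range. The difference of Col4a2 was -0.85 (SE 0.24, limma adjusted p = 0.174), and without the 4 libraries it was 0.01 (SE 0.09).

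Col4a1 (chr8:11198423-11312826, minus strand) had 2.73, 3.34 and 3.85 RPKM as lowest, median and highest level in miR, against 2.86, 5.38 and 6.87 RPKM in PBS. Again replicates 8, 9, 10 and 12 were the high ones, at 5.33 to 6.87 RPKM, and the groups overlapped through replicates 7 and 11. Its difference was -0.47 (SE 0.17, limma adjusted p = 0.184), and 0.08 (SE 0.12) without the 4 libraries. The other type IV chains, which belong to the networks of kidney, lung and smooth muscle, were low. Col4a5 measured 0.499 to 0.772 RPKM in miR and 0.477 to 0.865 RPKM in PBS. Col4a6 measured 0.0654 to 0.121 RPKM in miR and 0.0839 to 0.135 RPKM in PBS, and Col4a3 and Col4a4 had means near 0.05 RPKM.

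Col4a1 and Col4a2 lie head to head, with 2 bases between their transcripts in mm9, and are read from 1 shared promoter region. That region is printed because both chains differ in the same libraries. It is the RefSeq window of Col4a2, from 250 bases before to 50 bases after its start, at chr8:11312555-11312854 of GRCm38.p6 on the plus strand, and it shares 78 bases with the window of Col4a1. Capitals mark 2 motifs, searched on both strands, with no overlap between them here. The GC box was searched by the letters GGGCGG. The CCAAT box was searched by the letters CCAAT.
Col4a2 window: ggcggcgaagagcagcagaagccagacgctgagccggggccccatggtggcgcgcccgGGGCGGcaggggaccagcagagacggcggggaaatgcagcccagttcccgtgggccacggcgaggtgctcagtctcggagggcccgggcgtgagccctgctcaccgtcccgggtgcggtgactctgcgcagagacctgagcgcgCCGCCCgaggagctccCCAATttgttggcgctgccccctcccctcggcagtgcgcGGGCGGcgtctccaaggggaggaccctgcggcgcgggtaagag
The window holds 3 GC boxes, 1 CCAAT box and, on either strand, no TATAAA. Of the 35 chains with a window in the RefSeq table, 22 held a GC box, 13 a CCAAT box and 5 the letters TATAAA. Among all 32851 windows of the same length the shares were 35.7%, 37.4% and 13.6%. These shares are per window, while a chain with more than 1 window was counted if any of them held the motif. A match of letters is a description of the window and says nothing about binding.

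The 2 partners did not move in a fixed proportion. The ratio of Col4a2 to Col4a1 had a lowest, median and highest value of 1.22, 1.44 and 1.48 in miR, against 1.41, 1.80 and 2.24 in PBS. It was 2.24, 1.61, 1.98 and 2.19 in PBS replicates 8, 9, 10 and 12, against 1.51 and 1.41 in replicates 7 and 11. All 4 libraries thus had a ratio above the highest of the other 8, which was 1.51. This is a ratio of levels per length within a library, and it was not tested.

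The multiplexins Col15a1 and Col18a1, which border basement membranes and of which Col18a1 releases the fragment endostatin, showed the same arrangement. Col18a1 (chr10:76514924-76629275, minus strand) had 0.686, 1.15 and 2.13 RPKM as lowest, median and highest level in miR, against 1.32, 2.95 and 3.88 RPKM in PBS. Its 4 high PBS libraries lay at 2.90 to 3.88 RPKM and replicates 7 and 11 at 1.48 and 1.32 RPKM, inside the miR range. The difference was -0.85 (SE 0.24, limma adjusted p = 0.174), and -0.20 (SE 0.26) without the 4 libraries. A second transcript row of Col18a1 had a mean of 1.74 RPKM beside 1.93 RPKM and a difference of -0.82 (limma adjusted p = 0.165 in a fit over all rows), and reads shared by the rows were not separated.

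Col15a1 (chr4:47220884-47326037, plus strand) had 0.532, 0.712 and 0.828 RPKM in miR, against 0.646, 1.40 and 2.39 RPKM in PBS. Its high PBS libraries spread widely, from 1.02 RPKM in replicate 8 to 2.39 RPKM in replicate 9, and all 4 exceeded the other 8. The difference was -0.62 (SE 0.22, limma adjusted p = 0.182), and 0.03 (SE 0.13) without them.

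Of the beaded filament chains, Col6a1 had the difference of greatest size among all 16 chains tested. Col6a1 (chr10:76171537-76188789, minus strand) had 0.419, 0.462 and 0.631 RPKM as lowest, median and highest level in miR, against 0.418, 1.95 and 4.90 RPKM in PBS. PBS replicates 8, 9, 10 and 12 had 1.88, 2.03, 4.90 and 2.95 RPKM, and replicates 7 and 11 had 0.418 and 0.560 RPKM. The 4 high libraries were several-fold above the rest, and replicate 10 was the highest. Its difference was -1.16 (SE 0.35, limma adjusted p = 0.174), and -0.01 (SE 0.14) without the 4 libraries.

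Col6a2 (chr10:76058501-76086149, minus strand), the obligatory partner of Col6a1, had 0.532, 0.608 and 0.640 RPKM in miR, against 0.462, 2.20 and 2.57 RPKM in PBS. Here the 4 high libraries were close together, at 2.18 to 2.57 RPKM, while replicates 7 and 11 lay just below the miR range. The difference was -0.86 (SE 0.27, limma adjusted p = 0.174), and 0.14 (SE 0.12) without the 4 libraries. The ratio of Col6a2 to Col6a1 had a lowest, median and highest value of 1.01, 1.28 and 1.40 in miR, against 0.463, 0.949 and 1.37 in PBS. Unlike the type IV ratio, it did not set the 4 libraries apart, since it was 1.37 in replicate 8 and 0.463 in replicate 10.

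Col6a3, the long partner chain in the classical type VI trimer, was lower than its partners at 0.121 to 0.307 RPKM in miR and 0.140 to 0.414 RPKM in PBS. Of the chains that can take its place, Col6a5 (chr9:105758400-105862974, minus strand) had 0.563, 1.12 and 1.70 RPKM in miR, against 0.948, 1.36 and 1.98 RPKM in PBS. These ranges overlapped broadly, and the difference was -0.23 (SE 0.18, limma adjusted p = 0.457), or -0.05 (SE 0.25) without the 4 libraries. Col6a4 measured 0.0328 to 0.180 RPKM in miR and 0.0879 to 0.360 RPKM in PBS, and Col6a6 had a mean of 0.0796 RPKM.

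Of the FACIT chains all 3 tested members had an unadjusted p under 0.05, as had both tested basement membrane chains and both multiplexins. Col16a1 (chr4:129725084-129776521, plus strand), found near microfibrils and basement membranes, had 0.974, 1.26 and 1.39 RPKM in miR, against 1.40, 3.35 and 4.55 RPKM in PBS. It was the only chain of the 43 with every miR library below every PBS library, an arrangement found in 0.226% of genes tested. The gap was narrow: the highest miR library had 1.392 RPKM and PBS replicate 11 had 1.395 RPKM. PBS replicates 8, 9, 10 and 12 lay at 3.09 to 4.55 RPKM. The difference was -0.92 (SE 0.21, limma adjusted p = 0.174), and -0.19 (SE 0.12) without the 4 libraries.

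Col9a2 and Col9a3 encode chains of type IX, which coats the type II fibrils of cartilage. Col9a2 (chr4:120712171-120727930, plus strand) had 6.62, 8.74 and 10.4 RPKM in miR, against 7.82, 10.9 and 12.3 RPKM in PBS. Its groups overlapped over much of their range, and the difference was -0.29 (SE 0.12, limma adjusted p = 0.212), or -0.01 (SE 0.14) without the 4 libraries. Col9a3 (chr2:180332927-180356890, plus strand) had 1.80, 1.90 and 2.18 RPKM in miR, against 1.75, 2.79 and 3.87 RPKM in PBS. Its 4 high libraries lay at 2.47 to 3.87 RPKM, the lowest of them close to replicate 7 at 2.35 RPKM. The difference was -0.43 (SE 0.13, limma adjusted p = 0.174), and -0.06 (SE 0.11) without them. The ratio of Col9a2 to Col9a3 had a lowest, median and highest value of 3.48, 4.61 and 4.82 in miR, against 3.03, 3.65 and 5.22 in PBS, and the groups overlapped.

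The other FACIT chains lay below 1 RPKM. Col20a1 measured 0.217 to 0.338 RPKM in miR and 0.197 to 0.614 RPKM in PBS, and Col22a1 measured 0.0841 to 0.185 RPKM in miR and 0.114 to 0.271 RPKM in PBS. In both, the 4 libraries of high Meg3 exceeded the other 8. Col12a1, which binds type I fibrils, measured 0.296 to 0.430 RPKM in miR and 0.317 to 0.835 RPKM in PBS. Col19a1 measured 0.107 to 0.195 RPKM in miR and 0.133 to 0.539 RPKM in PBS. Col9a1 measured 0.133 to 0.206 RPKM in miR and 0.110 to 0.334 RPKM in PBS. The values of these 3 chains and of Col14a1, at 0.0776 to 0.116 RPKM in miR and 0.0863 to 0.166 RPKM in PBS, overlapped between the 4 libraries and the other 8.

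Fibrillar chains build the fibrils of connective tissue and cartilage, and 2 of the 3 tested were lower in miR at an unadjusted p under 0.05. Col1a2 (chr6:4455697-4491543, plus strand), a chain of type I collagen, had 1.43, 1.61 and 1.73 RPKM in miR, against 1.45, 1.75 and 2.13 RPKM in PBS. Its 4 libraries of high Meg3 lay at 1.51 to 2.13 RPKM, overlapping the other 8 at 1.43 to 1.83 RPKM. Replicates 8 and 9 lay above the other 8, at 2.13 and 1.93 RPKM, and replicates 10 and 12 lay among them. The difference was -0.09 (SE 0.08, limma adjusted p = 0.529), and -0.02 (SE 0.10) without the 4. Col1a1, its partner, measured 0.276 to 0.394 RPKM in miR and 0.293 to 0.526 RPKM in PBS, and Col3a1 had a mean of 0.0947 RPKM.

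Col11a2 (chr17:34176382-34203187, plus strand), a chain of the type XI fibrils of cartilage, had 0.648, 0.887 and 0.998 RPKM in miR, against 0.708, 1.74 and 1.91 RPKM in PBS. The 4 high libraries were tightly grouped at 1.66 to 1.91 RPKM, and replicates 7 and 11 lay inside the miR range. Its difference was -0.50 (SE 0.16, limma adjusted p = 0.174), and 0.04 (SE 0.14) without the 4. Col5a3 (chr9:20574494-20619478, minus strand), a chain of the type V fibrils that start type I fibrils, had 0.707, 0.854 and 1.28 RPKM in miR, against 0.800, 1.35 and 2.31 RPKM in PBS. Replicate 10 at 1.15 RPKM overlapped the miR range. The difference was -0.43 (SE 0.19, limma adjusted p = 0.233), and 0.09 (SE 0.15) without the 4.

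Below 1 RPKM, 5 fibrillar chains again set the 4 libraries apart. Col11a1, the partner of Col11a2, measured 0.312 to 0.706 RPKM in miR, against 1.19, 2.29, 1.44 and 1.59 RPKM in PBS replicates 8, 9, 10 and 12 and 0.389 and 0.457 RPKM in replicates 7 and 11. Col2a1, the main collagen of cartilage, measured 0.0798 to 0.189 RPKM in miR, against 0.510 to 0.755 RPKM in the 4 PBS libraries and 0.140 and 0.109 RPKM in replicates 7 and 11. Col27a1 measured 0.359 to 0.805 RPKM in miR and 0.550 to 1.44 RPKM in PBS. For these 3 chains, for Col5a1 at 0.0529 to 0.166 RPKM in miR and 0.146 to 0.459 RPKM in PBS, and for Col24a1 below 0.1 RPKM, all 4 libraries exceeded the other 8. Col5a2 did not follow, at 0.215 to 0.425 RPKM in miR and 0.269 to 0.489 RPKM in PBS.

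Col7a1, the chain of the anchoring fibrils of skin, was nearly silent outside the 4 libraries. It measured 0.0184 to 0.0672 RPKM in miR, against 0.369, 0.304, 0.284 and 0.479 RPKM in PBS replicates 8, 9, 10 and 12 and 0.0607 and 0.0453 RPKM in replicates 7 and 11. The median of the 4 libraries was 6.63 times that of the other 8, the second highest ratio of the 43 chains after the very low Col24a1 at 7.12.

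Transmembrane and short chain network chains did not show the arrangement. Col25a1 (chr3:129883763-130302801, plus strand) had 14.5, 18.3 and 21.3 RPKM in miR, against 14.9, 18.3 and 21.0 RPKM in PBS. The group medians were nearly equal and the 4 libraries of high Meg3 lay at 18.1 to 19.3 RPKM, in the middle of the others. Its difference was -0.04 (SE 0.09, limma adjusted p = 0.834), and 0.01 (SE 0.15) without the 4. Its 3 rows had means of 17.9 to 18.1 RPKM. Col23a1 (chr11:51103422-51397427, plus strand) had 0.941, 1.02 and 1.31 RPKM in miR, against 0.848, 1.23 and 1.58 RPKM in PBS. The ranges overlapped, and the difference was -0.15 (SE 0.10, limma adjusted p = 0.421), or 0.05 (SE 0.13) without the 4.

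Col8a2 (chr4:125964038-125991574, plus strand), of the short chain network of vessel walls and the cornea, had 3.42, 4.77 and 6.02 RPKM in miR, against 3.48, 4.61 and 5.48 RPKM in PBS. It was the only one of the 16 chains with a positive difference, 0.07 (SE 0.12, limma adjusted p = 0.763), or -0.06 (SE 0.16) without the 4 libraries, so its direction was within error. Its partner Col8a1 measured 0.555 to 1.10 RPKM in miR and 0.392 to 1.03 RPKM in PBS. The membrane chain Col13a1, a component of the neuromuscular junction, measured 0.0696 to 0.164 RPKM in miR and 0.0770 to 0.236 RPKM in PBS. The 8 chains below 0.1 RPKM (Col3a1, Col28a1, Col6a6, Col24a1, Col17a1, Col4a4, Col4a3 and Col10a1) had means of 0.0333 to 0.0947 RPKM. Their median library held an estimated 2.88 to 17.6 reads per chain, so differences among them were mostly not detectable at this depth.

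With all libraries and no filter on level, 24 of the 43 chains were lower in miR at an unadjusted p under 0.05, beside 9.24% of 20477 genes with a value above 0, and none was higher, beside 6.85% of genes. The median difference was -0.19 over the 43 chains. By type these were 8 of 11 fibrillar, 7 of 9 FACIT, 3 of 6 basement membrane and 3 of 6 beaded filament chains, both multiplexins and Col7a1. They included 0 of 4 transmembrane and 0 of 3 short chain network chains. A chain of low level can pass or miss on few reads, and differences between types were not tested.

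**Figure D2:**
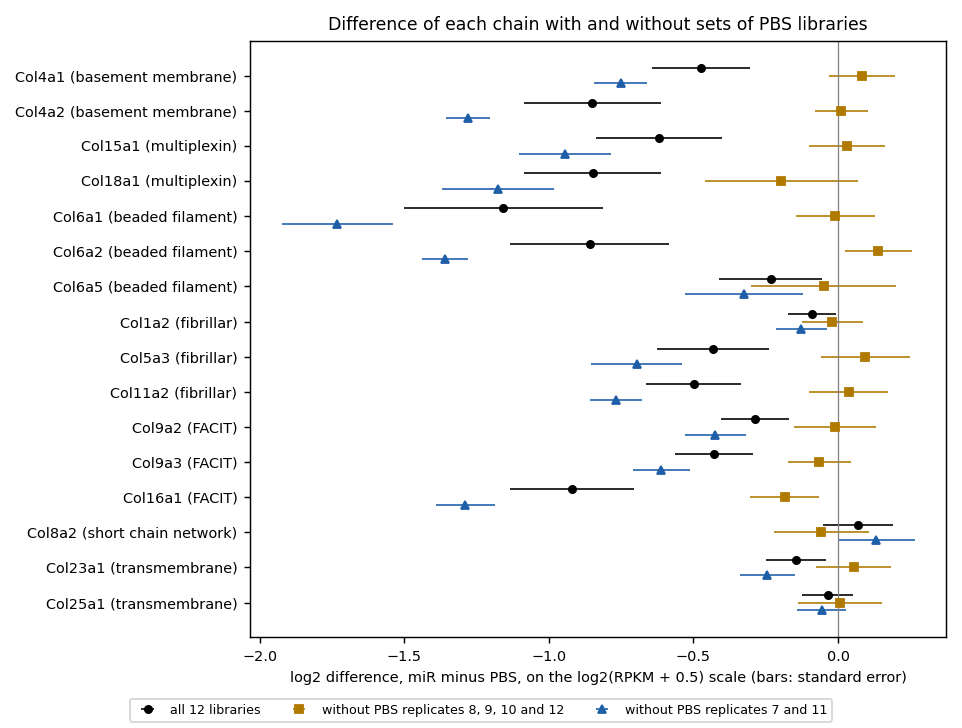
Difference miR minus PBS on the log2(RPKM + 0.5) scale with its standard error for the 16 chains tested, with all 12 libraries, without PBS replicates 8, 9, 10 and 12, and without PBS replicates 7 and 11. With all libraries Col6a1 lies at -1.16 and Col8a2 at 0.07, and without the 4 libraries the differences of all chains lie between -0.20 and 0.14.

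The group difference went with the 4 PBS libraries of high Meg3. They exceeded all other 8 libraries in 9 of the 16 chains tested, beside 8.21% of genes tested, and in 17 of all 43 chains, beside 6.41% of 20477 genes. In no chain did they lie below the other 8, an arrangement found in 7.94% of genes tested. In 10 of the 16 chains PBS replicates 7 and 11 were both inside the range of the miR libraries, and the share of all genes with that arrangement was not computed. Without the 4 libraries 0 of 16 chains were lower in miR at an unadjusted p under 0.05 in limma, beside 0.354% of genes, and 0 were higher, beside 0.392% of genes. The median difference was then -0.001, and 8 chains had a negative and 8 a positive value. Without a filter, 1 of 43 chains (Col4a3, -0.11) was lower at that threshold, beside 1.37% of genes, and 1 (Col6a2, 0.14) was higher, beside 0.855% of genes. That fit has 2 PBS libraries, so a p above the threshold does not show equal levels.

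Leaving out PBS replicates 7 and 11 had the opposite result. In that fit 11 of the 16 chains had an adjusted p under 0.05, all lower in miR, beside 11.5% of genes, and the median difference was -0.72. Without a filter 21 of 43 chains passed, beside 8.09% of genes. Leaving out replicate 7 alone gave 7 chains past the adjusted threshold, beside 5.02% of genes, and leaving out replicate 11 alone gave 7, beside 2.45% of genes. Col4a2, Col6a1, Col6a2, Col16a1 and Col18a1 were called in both. With weights for each library, which gave replicates 7, 9 and 11 of PBS 0.409, 0.451 and 0.455, 11 chains passed, beside 12% of genes. With log2 Meg3 as a covariate 0 of 16 chains were lower at an unadjusted p under 0.05, beside 0.58% of genes, and the median difference was -0.02. Meg3 was high only in PBS libraries, so this fit cannot fully separate Meg3 from group.

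Because the libraries fall into separate clusters of Meg3, no correlation over all 12 was computed. The relation of the chains to Meg3 was tested within the 8 libraries of similar Meg3, the 6 miR libraries and PBS replicates 7 and 11. Pearson's r and Spearman's rho had exact permutation p-values over 40320 pairings, adjusted over 13272 genes. No chain passed the adjusted threshold, with 0.977 as the lowest adjusted p. The smallest p possible with 40320 pairings, multiplied by 13272 genes, is above 0.05. A gene could thus pass only together with others of equally small p, so this does not show the absence of a relation. Unadjusted p-values of r under 0.05 were found for 4 of 16 chains, beside 4.97% of genes. Col6a1 had r = 0.96 (exact permutation p = 9.92e-05) and rho = 0.95 (exact permutation p = 0.00114), and r = 0.89 without miR replicate 6 and PBS replicate 11, the 2 libraries farthest from the median Meg3. Its levels in these 8 libraries spanned 0.418 to 0.631 RPKM.

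Col4a1 had r = 0.74 (exact permutation p = 0.0270) and rho = 0.81 (exact permutation p = 0.0218), and r = 0.56 without those 2 libraries. Col23a1 had r = 0.75 (exact permutation p = 0.0266) and rho = 0.57 (exact permutation p = 0.151), and Col11a2 had r = -0.83 (exact permutation p = 0.00990) and rho = -0.64 (exact permutation p = 0.0962). Without the 2 farthest libraries r was -0.04 for Col23a1 and 0.002 for Col11a2, so both rested on them. Col4a2, which differed so widely between the 4 libraries and the other 8, had r = 0.26 within the 8 (exact permutation p = 0.497). Within the 4 libraries, where Meg3 was highest in replicate 9, 23 of the 43 chains were also highest in replicate 9, 8 in replicate 12, 7 in replicate 8 and 5 in replicate 10. Col4a1, Col15a1, Col11a1 and Col6a6 followed the order of Meg3 through all 4 libraries. Col4a2 was highest in replicate 12 and Col6a1 in replicate 10. The shares of all genes with these orders were not computed, so the counts do not show a relation of the chains to Meg3. With 4 libraries no relation was tested.

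**Figure D3:**
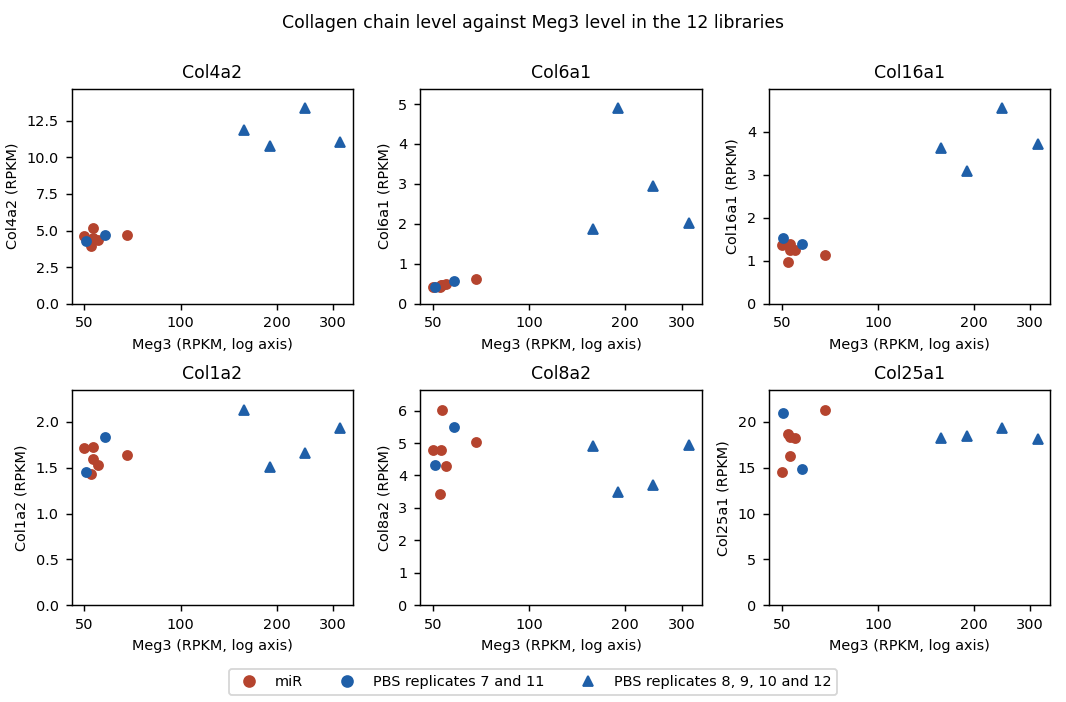
Level of 6 chains (RPKM, linear axes from 0) against Meg3 (RPKM, log axis) in the 12 libraries; triangles are PBS replicates 8, 9, 10 and 12. The 4 triangles lie at 158 to 316 RPKM of Meg3 and are high for Col4a2, Col6a1 and Col16a1, while for Col8a2 and Col25a1 they lie among the others. For Col1a2 the triangles of replicates 8 and 9 lie above the circles, and those of replicates 10 and 12 lie among them.

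**Figure D4:**
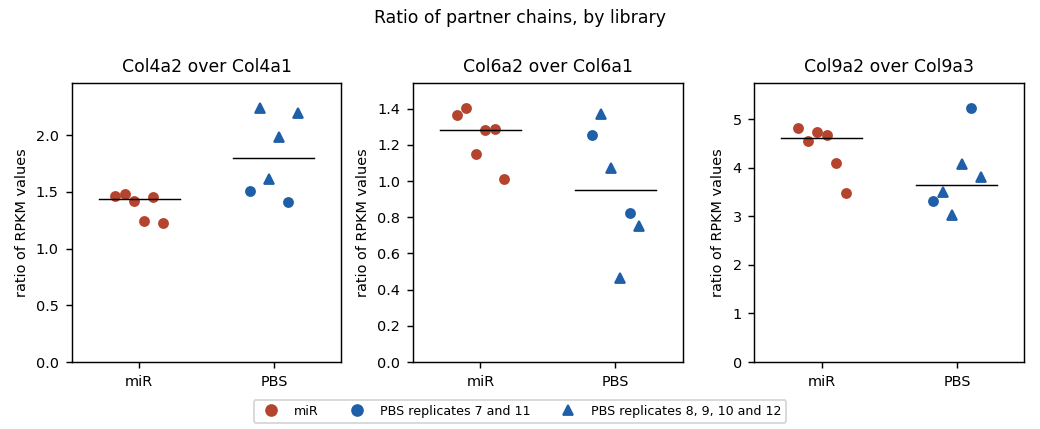
Ratio of the RPKM values of partner chains in each library, with group medians as lines. The ratio of Col4a2 to Col4a1 is 1.61 to 2.24 in PBS replicates 8, 9, 10 and 12, above the other 8 libraries, while the ratios of Col6a2 to Col6a1 and Col9a2 to Col9a3 overlap.

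Summed levels of endothelial, mural and fibroblast markers overlapped between the 4 libraries and the other 8, while single markers differed. The 4 libraries exceeded the other 8 in 3 of 10 endothelial markers (Pecam1, Eng and Tie1) and in 3 of 9 mural markers (Notch3, Pdgfrb and Cspg4). Of the 10 fibroblast markers they exceeded the other 8 in Slc6a13 and lay below them in Pdgfra. Among genes tested, the 4 libraries lay above the other 8 in 8.21% and below them in 7.94%. Among the 20477 genes with a value above 0 they lay above in 6.41%. The summed level of 10 endothelial markers, all detected, was 34.9 to 45.6 RPKM in miR and 39.5 to 51.5 RPKM in PBS, with 44.7 to 51.2 RPKM in the 4 libraries. For 9 mural cell markers, all detected, it was 21.9 to 28.3 RPKM in miR and 24.9 to 31.3 RPKM in PBS, with 25.5 to 31.3 RPKM in the 4. For 10 markers of meningeal and perivascular fibroblasts, all detected, it was 19.1 to 23.7 RPKM in miR and 20.3 to 22.5 RPKM in PBS. Choroid plexus markers, 8 of 8 detected, summed to 38.2 to 48.1 RPKM in miR and 32.3 to 64.1 RPKM in PBS, the highest in replicate 7. Astrocyte markers, 6 of 6 detected, ran the other way, with 429 to 485 RPKM in miR and 355 to 399 RPKM in the 4 PBS libraries, against 452 to 455 RPKM in replicates 7 and 11. In 4 of those 6 (Aqp4, Gja1, Gjb6 and Slc1a3) the 4 libraries lay below the other 8, beside 7.94% of genes tested. Oligodendrocyte markers, 6 of 6 detected, summed to 544 to 889 RPKM in miR. In PBS they summed to 1397 RPKM in replicate 7 and 384 to 613 RPKM in the others. Precursor markers summed to 56.3 to 77.0 RPKM in miR and 62.1 to 90.8 RPKM in PBS, and microglia markers to 71.4 to 84.4 and 63.7 to 82.7 RPKM. In each of these lists replicate 7 was the highest PBS library, and the fit without the 4 libraries keeps it. The part of these cell types in the chains' values was not tested.

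The GC content of a transcript moved with the difference. Over 42 chains with a GC value, the Spearman correlation between GC content and the difference without a filter was -0.59, and over the 16 chains tested it was -0.42. Col25a1, the chain of lowest GC content, had 45.9% in the row used here and 58.2% in its other 2 rows. For all tested genes the row of highest mean was used as well. Over the 13004 genes tested with a GC value the correlation was -0.64. These are correlations across genes that share the same 12 libraries. The 17 chains with the 4 libraries above the other 8 had a median GC content of 58.4%, and the 25 of the other 26 chains with a GC value had 52.4%. Exceptions ran both ways, since Col11a1 had 48.0% and a difference of -0.71, and Col8a2 had 59.1% and a difference of 0.07. After each library had been corrected for GC content in 20 bins, 9 of the 16 chains were lower in miR at an unadjusted p under 0.05, beside 8.33% of genes, and the median difference was -0.33 over the chains and 0.01 over all genes.

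**Figure D5:**
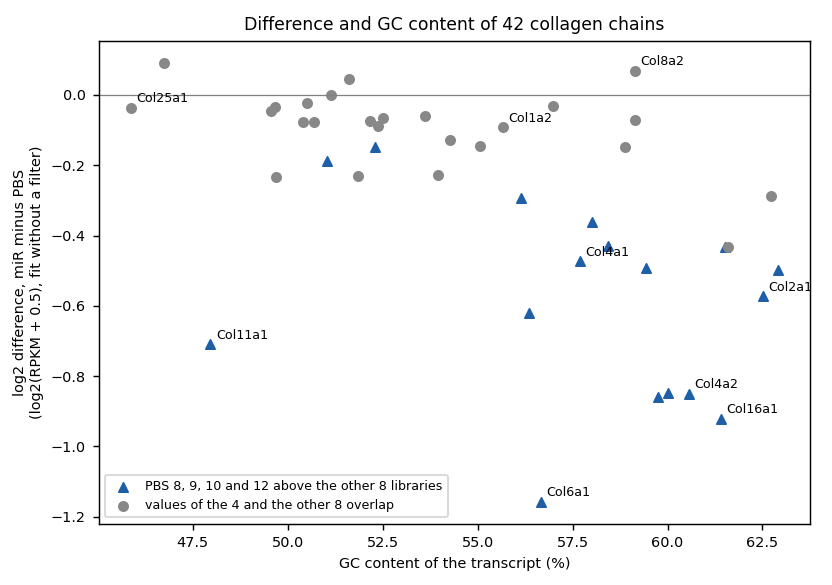
Difference miR minus PBS (log2(RPKM + 0.5), fit without a filter) against GC content of the transcript (%) for 42 chains. Triangles are the chains in which PBS replicates 8, 9, 10 and 12 exceed the other 8 libraries; Col6a1 is lowest at -1.16, and Col11a1 is the triangle of lowest GC content, 48.0%.

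One of the injected mimics, miR-29c, belongs to the family known to repress collagen mRNAs, and the labels do not say which arm it copied. The mature 3p strand in RefSeq (chr1:195037600-195037621 of GRCm38.p6, plus strand) and its sites are printed because the chains with and without them can be compared. Capitals mark the seed, bases 2 to 8, in the microRNA and the matching 7 letters TGGTGCT in the 3′ untranslated regions, read from GENCODE M21 on GRCm38 with up to 10 bases on each side.
mmu-miR-29c-3p: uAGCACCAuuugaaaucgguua
Col4a2, first site, chr8:11448349-11448375, plus strand: aaggccacgtTGGTGCTtatccttctg
Col4a2, second site, chr8:11448520-11448546, plus strand: acacccagctTGGTGCTtactcttaac
Col4a1, chr8:11199752-11199778, minus strand: cgtcacaacaTGGTGCTactccccccc
Col6a2, chr10:76596161-76596187, minus strand: atcccatctgTGGTGCTaataggaccc
Col15a1, chr4:47312490-47312516, plus strand: atccacatatTGGTGCTagattctgca
Col16a1, chr4:130099258-130099277, plus strand: ggggttccccTGGTGCTgca
Col25a1, chr3:130597871-130597897, plus strand: tttgtgttgtTGGTGCTaatagatctt
Of 42 chains with a 3′ untranslated region in the annotation, 24 held at least 1 such match, with 40 matches in all. Among 18928 genes the share with a match was 11.7%, and among 12331 of the genes tested it was 13.8%.

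Of the 16 chains tested, 7 held a match, namely the 6 chains shown above and Col5a3 with 3. Lower in miR at an unadjusted p under 0.05 were 6 of these 7 chains and 5 of the 9 without a match, beside 11.1% of all genes tested, with median differences of -0.62 and -0.29. The exception was Col25a1, with a match and a difference of -0.04. Its match lies at base 2189 of the 3′ untranslated region of the row of highest mean, a transcript of 6701 bases. The other 2 rows of Col25a1 are transcripts of 2624 bases with similar means, 18.0 and 17.9 RPKM, and they were not searched. Col6a1 and Col18a1, with no match, had differences of -1.16 and -0.85. Over all 42 chains without a filter the counts were 15 of 24 with a match and 9 of 18 without, beside 9.24% of genes, with medians of -0.17 and -0.19. The difference between chains with and without a match was not tested. Without the 4 PBS libraries none of the 16 chains had an unadjusted p under 0.05, beside 0.354% of genes lower and 0.392% higher.

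Genes that build and secrete collagen were read from the same fit. Of 29 tested members of a collagen biosynthesis list, 9 were lower in miR at an unadjusted p under 0.05 and 2 were higher, beside 11.1% and 9.12% of all genes, none at an adjusted p under 0.05 in limma. The median difference was -0.05, and its distance from that of the chains was not tested. By role, the 9 lower members were 3 of 9 in prolyl hydroxylation, 2 of 5 in lysyl hydroxylation and glycosylation, 2 of 3 in crosslinking, 1 of 3 in propeptide processing and 1 of 9 chaperone and export genes. Bmp1, the protease that cleaves the carboxyl propeptide of fibrillar procollagens, measured 3.00 to 3.95 RPKM in miR and 3.67 to 5.95 RPKM in PBS. Its difference was -0.46 (SE 0.11, limma adjusted p = 0.174).

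Plod3, which hydroxylates and glycosylates lysines, measured 8.14 to 9.84 RPKM in miR and 9.75 to 11.4 RPKM in PBS, and its difference was -0.24 (SE 0.06, limma adjusted p = 0.174). Leprel2, a prolyl 3-hydroxylase, measured 2.76 to 3.72 RPKM in miR and 3.11 to 7.96 RPKM in PBS, with a difference of -0.76 (SE 0.21, limma adjusted p = 0.174). Glt25d1, a galactosyltransferase of hydroxylysine, measured 8.22 to 10.3 RPKM in miR and 9.54 to 15.4 RPKM in PBS, with a difference of -0.36 (SE 0.10, limma adjusted p = 0.174). In all 4 of these genes PBS replicates 8, 9, 10 and 12 exceeded the other 8 libraries, and without them the differences were -0.13, -0.15, -0.03 and -0.04 in the order named.

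The collagen chaperone Serpinh1 measured 8.27 to 10.4 RPKM in miR and 7.37 to 11.8 RPKM in PBS, with a difference of -0.06 (SE 0.09, limma adjusted p = 0.750). P4ha1, a catalytic subunit of prolyl 4-hydroxylase, measured 8.33 to 8.94 RPKM in miR and 8.03 to 9.72 RPKM in PBS, with a difference of -0.01 (SE 0.05, limma adjusted p = 0.912). For both genes the groups overlapped through most of their range. Without the 4 libraries 0 of the 29 members had an unadjusted p under 0.05 in limma, beside 0.354% of genes lower and 0.392% higher. At such shares hardly any member of a list of this size would be called. Without PBS replicates 7 and 11 there were 9 lower and 1 higher at an adjusted p under 0.05, beside 11.5% and 11.9% of genes.

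Of 22 genes of collagen receptors, degradation and uptake in the table, 8 were tested, and none had an unadjusted p under 0.05 in limma, beside 11.1% of genes lower and 9.12% higher, shares at which few of 8 genes would be called. Itgb1, the common beta subunit of the collagen-binding integrins, measured 18.1 to 20.8 RPKM in miR and 16.3 to 21.0 RPKM in PBS, with a difference of 0.12 (SE 0.06, limma adjusted p = 0.290). Ddr1, a receptor tyrosine kinase for collagen, measured 23.2 to 31.8 RPKM in miR and 27.5 to 36.0 RPKM in PBS, with a difference of -0.12 (SE 0.08, limma adjusted p = 0.417). Both pairs of ranges overlapped. Timp3, an inhibitor of matrix metalloproteinases that is bound to the matrix, measured 41.3 to 49.8 RPKM in miR and 32.6 to 48.1 RPKM in PBS, with a difference of 0.14 (SE 0.08, limma adjusted p = 0.351). Gpr56, a receptor of type III collagen, measured 39.1 to 49.3 RPKM in miR and 42.2 to 50.8 RPKM in PBS, with a difference of -0.08 (SE 0.06, limma adjusted p = 0.445).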

How the data were processed

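PVN tissue was punched with a 1.0 mm needle from 2 slices of 300 µm per animal, and 250 ng of its RNA went into a stranded poly-A library, per the labels' protocols. Sequencing used 2 lanes, per the series design. The authors deposited 1 table of RPKM values with 1 column per animal. The submitters' processing notes name mm9 and edgeR, with no role. Which aligner and read counter were used, and any scaling, is not given in the sources used here. RPKM values were means over the 2 lanes, so whole reads could not be restored and no count model was used. Depth (22.8 to 45.2 M reads) came from the steps between low values.

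Values were tested as log2(RPKM + 0.5) with limma 3.58.1 in R 4.3.3, 2-sided, with a variance trend and no covariate. Members and lists were chosen with earlier results of these data known. Chains of at least 1 RPKM are given in full, those from 0.1 to 1 RPKM by values, and lower ones by count and range. Of each pathway list the 4 tested members of smallest p are named, with Serpinh1, P4ha1, Ddr1 and Itgb1. Rows sharing reads were not separated. Scripts were tested on simulated data. Reads per chain were estimated from RPKM, length and depth, and cover counting error only. Transcript positions are mm9, from the table. Permutation p-values were computed with numpy 2.4.6 in Python 3.11.15, and ranks with scipy 1.17.1. Where no separate litter is given, p-values measure the spread between these animals. Alternatives were other pseudocounts, filters and scalings, library weights, Meg3 as covariate, GC correction, single transcript rows, and libraries left out.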

Additional observations from a re-analysis of the deposited data

Results flagged for a closer look

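Among 72 sets of 6 libraries checked for a single value far from the rest, 3 were found, where chance gives about 1 in 20. Col4a5, a basement membrane chain, had 0.865 RPKM in PBS replicate 9, against 0.477 to 0.577 RPKM in the other PBS libraries. Col9a3 had 2.18 RPKM in miR replicate 3, against 1.80 to 1.90 RPKM in the other miR libraries. Meg3 had 68.1 RPKM in miR replicate 6, against 49.9 to 55.1 RPKM in the other miR libraries.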

How the results depend on the processing

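The 11 chains lower in miR at an unadjusted p became 24 with no filter (of 43), 2 with a filter at 5 RPKM (of 3), and 0 both with log2 Meg3 as covariate and without PBS replicates 8, 9, 10 and 12. The median of -0.45 was -0.0235 and -0.00146 in those last 2 fits, and the 24 of 43 became 1 without the 4 libraries. Fewer chains pass a filter at 5 RPKM; for the other settings the cause was not tested. Genes past an adjusted p numbered 3025 with library weights and 3107 without PBS replicates 7 and 11, and 0 to 909 when 1 library was left out; chains past it numbered 11, 11 and 0 to 7. With Meg3 as covariate the sign turned for Col6a5 (0.0424), Col15a1 (0.0626), Col4a1 (0.0754), Col5a3 (0.0415), Col23a1 (0.0689), Col25a1 (0.0170) and Col8a2 (-0.0185). Without PBS replicates 8, 9, 10 and 12 it turned for Col11a2 (0.0364), Col15a1 (0.0302), Col4a1 (0.0829), Col4a2 (0.0105), Col5a3 (0.0936), Col6a2 (0.140), Col23a1 (0.0535), Col25a1 (0.00637) and Col8a2 (-0.0576). Col25a1 ran from -0.0924 to 0.0200 with 1 library left out. Over the 16 chains and all settings, 317 values stayed on the same side of the adjusted threshold with the same sign, 36 passed it with the same sign, and 18 turned sign. Pseudocounts of 0.1 and 1 RPKM, median scaling, quantile normalization, GC correction and single transcript rows turned no chain's sign. The fits without a filter that also leave out libraries, correct for GC content or change the pseudocount were chosen after seeing the data. No paired analysis was possible because the replicate numbers, 1 to 6 in miR and 7 to 12 in PBS, are not shared. Chains below 0.1 RPKM rest on too few reads for a comparison.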
